A study of Homo sapiens with 8 samples.

Results

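The genes examined are 9 receptor tyrosine kinases, EGFR, ERBB2, ERBB3, MET, AXL, FGFR1, IGF1R, EPHA2 and PDGFRB, and TGFA, a ligand of EGFR. They were chosen by name, and are 10 of the 18693 genes with a protein-coding (NM) RefSeq entry and a gene symbol. Each gene's level is its FPKM, a read number divided by transcript length and library depth, summed over its RefSeq entries. The libraries come from A498 cells, grown in DMEM, and 786-O cells, grown in RPMI-1640, both established lines of clear cell renal cell carcinoma (ccRCC). Each line gave 2 libraries of cells transfected with non-targeting control (NTC) siRNA, 1 with siRNA1 and 1 with siRNA2 against SLINKY, a long intergenic noncoding RNA. All cells received 50 nM siRNA by lipid transfection and, by the labels, were collected after 16 h. The study asked what changes when SLINKY is silenced, and the lines give a further comparison. Culture medium and cell line cannot be told apart, each line stands for 1 tumor, there were no untransfected cells, and each siRNA had 1 library per line, so the siRNAs served as the replicates of the knockdown.

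Receptor tyrosine kinases sit in the plasma membrane, bind growth factors outside the cell and phosphorylate tyrosines inside it, where adaptor proteins dock and signal to the MAPK and PI3K pathways. TGFA is made as a membrane-anchored precursor that ADAM17 cuts free, after which it binds EGFR. In ccRCC the loss of VHL leaves hypoxia-inducible factors (HIF) active, and TGFA is a known HIF target in this tumor. EGFR, MET and AXL are receptors long studied in kidney cancer.

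The targeted transcript, SLINKY, stood in A498 at 14.6 and 16.1 FPKM with NTC, at 1.64 FPKM with siRNA1 and at 3.01 FPKM with siRNA2. In 786-O cells the NTC values were 1.45 and 1.39 FPKM, and siRNA1 and siRNA2 gave 0.0569 and 0.594 FPKM. It was therefore below both NTC values of its line in all 4 knockdown libraries, by 58.2% to 96.0% of the NTC mean. Depth, estimated with an assumed mean fragment length of 200 bp, ranged from 25052775 to 64419622 reads per library. Of the 8 renal and ccRCC markers examined, 6 had a mean of at least 1 FPKM, among them PAX8 (39.2 to 48.1 FPKM over the 8 libraries), the keratins KRT8 and KRT18, and VIM. CA9, a HIF target used as a ccRCC marker, was low, at 0.293 to 0.559 FPKM in A498 and at most 0.0229 FPKM in 786-O. NDUFA4L2, the other marker below that mean, was 0.0404 to 0.221 FPKM in A498 and 0.151 to 0.360 FPKM in 786-O. All 5 endothelial and all 5 leukocyte markers stayed under 1 FPKM in every library.

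The receptors and TGFA spanned a wide range of levels. Per length of transcript, TGFA ranked highest of the 10 genes in A498, with a mean of 76.1 ± 2.37 FPKM (SD, n = 4 libraries), and AXL ranked highest in 786-O, with 63.8 ± 1.60 FPKM (SD, n = 4). In A498 the order below TGFA was MET, EPHA2, AXL, FGFR1, ERBB2, EGFR, IGF1R, ERBB3 and PDGFRB. In 786-O the order below AXL was MET, EPHA2, TGFA, FGFR1, ERBB2, EGFR, IGF1R, PDGFRB and ERBB3. Neighbours overlapped between libraries for EPHA2 and AXL in A498, for EPHA2 and TGFA in 786-O, and for ERBB3 and PDGFRB in both lines, while all other neighbours were apart. The summed FPKM of the 9 receptors was 148.9 to 160.9 in A498 and 178.8 to 190.4 in 786-O, so these sums did not overlap. AXL differed most among the 9, with means of 34.3 FPKM in A498 and 63.8 FPKM in 786-O. The 44 genes listed further below as other receptor tyrosine kinases had the opposite order. Their summed FPKM was 146.2 to 158.2 in A498 and 86.7 to 93.4 in 786-O.

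**Figure D1:**
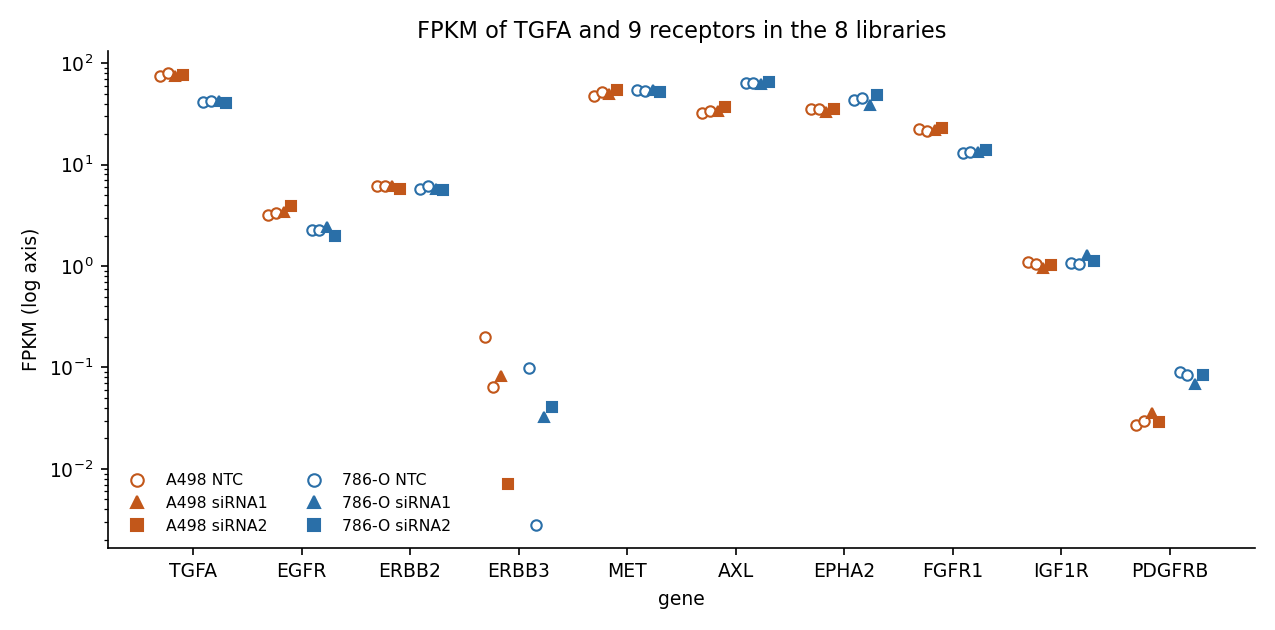
FPKM (log axis) of TGFA and the 9 receptors in each of the 8 libraries, with A498 in orange and 786-O in blue, open circles for NTC and filled symbols for the siRNAs. TGFA, EGFR and FGFR1 are higher in all 4 A498 libraries, and AXL, EPHA2 and PDGFRB are higher in all 4 786-O libraries.

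For 4 of the 5 genes that differed between the lines, the 250 bases before the start of the leading RefSeq entry are shown, as the promoter next to which their transcription begins. FGFR1, the other of the 5, is named only. The sequences were read from GRCh37, the build of the files, and run 5′ to 3′ on the gene's strand up to the base before the start. Capitals mark matches, on either strand, to the HIF core (ACGTG or GCGTG), to AP-1 (TGANTCA) and to the GC box (GGGCGG). The TGFA region is chr2:70781148-70781397 on the minus strand, that of EGFR is chr7:55086475-55086724 on the plus strand, that of AXL is chr19:41724858-41725107 on the plus strand, and that of EPHA2 is chr1:16482583-16482832 on the minus strand.
TGFA: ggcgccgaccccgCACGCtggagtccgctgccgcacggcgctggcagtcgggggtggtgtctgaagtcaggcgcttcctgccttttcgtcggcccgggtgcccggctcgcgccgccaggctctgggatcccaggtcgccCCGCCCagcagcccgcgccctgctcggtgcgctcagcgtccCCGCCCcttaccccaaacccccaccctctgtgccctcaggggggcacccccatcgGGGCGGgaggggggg
EGFR: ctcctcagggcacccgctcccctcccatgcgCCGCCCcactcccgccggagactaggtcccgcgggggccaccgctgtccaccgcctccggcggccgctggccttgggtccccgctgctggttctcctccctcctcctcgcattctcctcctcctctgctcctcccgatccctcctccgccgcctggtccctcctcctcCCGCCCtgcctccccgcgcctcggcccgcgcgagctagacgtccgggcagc
AXL: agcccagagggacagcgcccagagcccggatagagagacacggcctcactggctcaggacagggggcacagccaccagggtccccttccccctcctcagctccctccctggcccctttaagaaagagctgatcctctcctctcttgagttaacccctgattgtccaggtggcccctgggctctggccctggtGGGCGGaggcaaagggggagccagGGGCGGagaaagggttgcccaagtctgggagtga
EPHA2: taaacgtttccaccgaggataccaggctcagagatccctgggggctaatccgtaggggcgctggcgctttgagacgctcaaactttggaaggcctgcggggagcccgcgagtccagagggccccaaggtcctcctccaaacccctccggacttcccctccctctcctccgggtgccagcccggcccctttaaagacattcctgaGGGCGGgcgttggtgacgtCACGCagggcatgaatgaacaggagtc

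TGFA and EPHA2 each held 1 HIF core, which 43.2% of 35093 RefSeq promoters of the same length (GRCh38.p14) also hold. The core lay 237 to 233 bases before the TGFA start and 27 to 23 bases before the EPHA2 start. GC boxes, present in 42.6% of promoters, numbered 3 for TGFA, 2 for EGFR, 2 for AXL and 1 for EPHA2. No region held the AP-1 word, which 6.57% of promoters hold. The regions were 62.8% to 76.4% G or C, above the promoter median of 58.0%. These matches describe letters only.

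A498 was compared with 786-O first, over 4 libraries a line. TGFA, FGFR1 and EGFR were higher in A498, AXL and EPHA2 were higher in 786-O, and ERBB2, MET and IGF1R did not pass the test. The test was limma on log2(FPKM + 0.1) with Benjamini-Hochberg adjustment over the 10503 genes with a mean of at least 1 FPKM, and a gene was called at an adjusted p under 0.05. Of the 10 genes, 8 passed this filter, and 5 of the 8 were called, where 83.0% of all genes tested were called. Higher in A498 were 3 of the 8, beside 40.6% of all genes tested, and higher in 786-O were 2 of the 8, beside 42.5%. The libraries of the lines did not overlap for the same 5 of the 8, and for 77.3% of all genes tested. None of the 8 was both called and at least 2-fold apart, against 23.3% of all genes tested. The median size of the log2 difference was 0.47 for the 8 genes and 0.50 for all genes tested. A difference between the lines was therefore common in these data, and the share of 62.5% called among the 8 was not above that of all genes. The libraries are bulk RNA of cultured lines, in which fewer cells expressing a gene and less RNA per cell cannot be told apart.

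**Figure D2:**
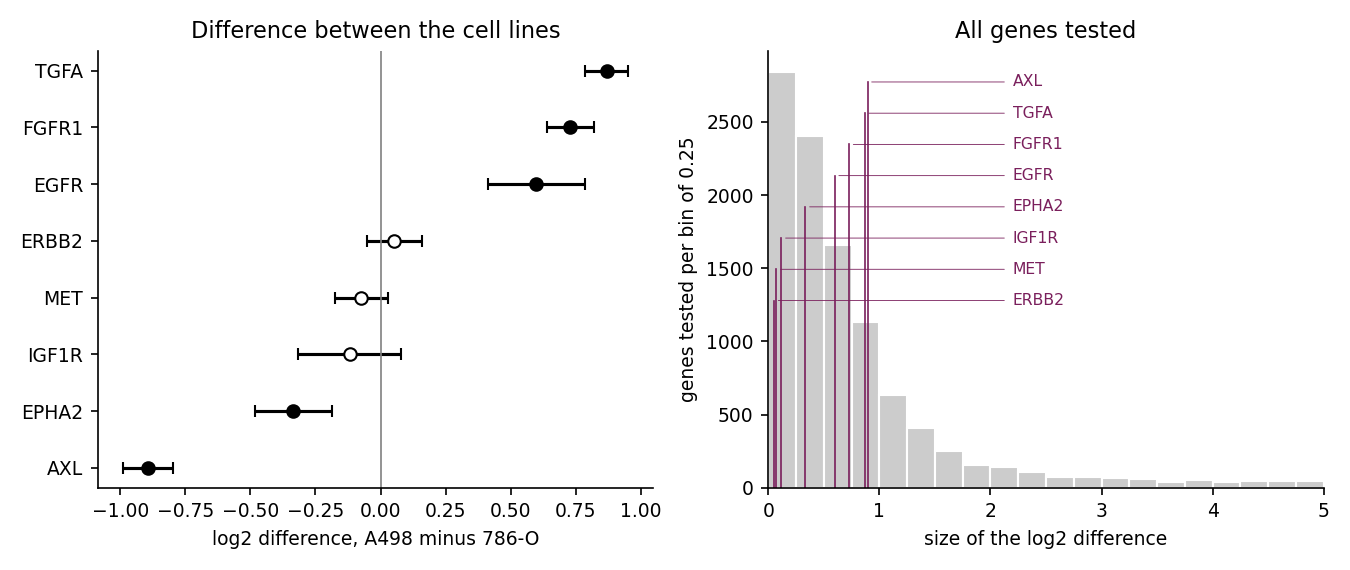
Left, log2 difference of A498 minus 786-O for the 8 genes tested, with 95% intervals from limma and filled circles for an adjusted p under 0.05. Right, number of all tested genes by the size of their log2 difference in bins of 0.25 (axis ends at 5), with lines at the 8 genes, whose differences all lie under 1.

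TGFA, the ligand, was 74.5 and 79.5 FPKM in the A498 NTC libraries and 74.5 and 76.0 FPKM with siRNA1 and siRNA2. In 786-O it was 41.8 and 42.1 FPKM in the NTC libraries and 42.4 and 40.3 FPKM with the siRNAs. All A498 libraries were above all 786-O libraries, and TGFA was 1.83-fold higher in A498 (95% interval 1.72 to 1.93, limma adjusted p = 9.21e-09). This difference was larger than that of 71.6% of all genes tested. TGFA lies on chromosome 2 from 70674412 to 70781147 (hg19, minus strand). Cufflinks divided its reads between 2 entries in the same ratio of 38.5 in every library, so only their sum was used.

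EGFR, the receptor of TGFA and of several other ligands, lay far below TGFA in FPKM. It was 3.18 and 3.30 FPKM in the A498 NTC libraries and 3.42 and 3.89 FPKM with siRNA1 and siRNA2. In 786-O it was 2.28 FPKM in both NTC libraries, 2.43 FPKM with siRNA1 and 1.99 FPKM with siRNA2. The lines did not overlap, and EGFR was 1.51-fold higher in A498 (95% interval 1.33 to 1.72, limma adjusted p = 7.66e-05). TGFA exceeded EGFR by a ratio of 22.2 ± 2.02 in A498 and 18.6 ± 1.19 in 786-O (SD, n = 4 each, FPKM over FPKM), and the ranges of this ratio, 19.6 to 24.1 and 17.5 to 20.3, overlapped. Between 91.0% and 96.7% of EGFR's FPKM lay in NM_005228, on chromosome 7 from 55086725 to 55275031 (hg19).

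ERBB2, the partner of the other ERBB receptors, which has no known ligand of its own, did not pass the test between the lines. It was 6.19, 6.21, 6.10 and 5.77 FPKM in A498 (both NTC, siRNA1, siRNA2) and 5.81, 6.17, 5.79 and 5.61 FPKM in 786-O. The values overlapped, and the 95% interval of the A498-to-786-O ratio was 0.964 to 1.12 (limma adjusted p = 0.314). ERBB3, which binds neuregulins and signals through its partners, was 0.00716 to 0.199 FPKM in A498 and 0.00278 to 0.0993 FPKM in 786-O. It lay under 1 FPKM in every library and was not tested, its values overlapped between the lines, and a difference was not detectable at this depth. ERBB4, the remaining family member, was at most 0.0102 FPKM.

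Among the other receptors, AXL, the GAS6 receptor, differed in the opposite direction from TGFA and by a like amount. It was 32.5 and 33.7 FPKM in the A498 NTC libraries and 34.1 and 36.9 FPKM with siRNA1 and siRNA2. In 786-O it was 63.9 and 63.3 FPKM in the NTC libraries and 62.0 and 65.8 FPKM with the siRNAs. The groups did not overlap, and AXL was 1.86-fold higher in 786-O (95% interval 1.74 to 1.99, limma adjusted p = 2.49e-08). GAS6, its ligand, was 17.0 to 18.9 FPKM in A498 and 30.7 to 34.4 FPKM in 786-O, and its ratio to AXL was 0.529 ± 0.0467 in A498 and 0.520 ± 0.0194 in 786-O (SD, n = 4 each).

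EPHA2, a receptor for ephrin-A ligands on neighbouring cells, was 35.6, 35.6, 33.2 and 35.7 FPKM in A498, in the order NTC, NTC, siRNA1 and siRNA2. In 786-O it was 43.9, 45.4, 39.0 and 49.1 FPKM. The lowest 786-O value, with siRNA1, was still above the highest A498 value, and EPHA2 was 1.26-fold higher in 786-O (95% interval 1.14 to 1.40, limma adjusted p = 0.000912).

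FGFR1, a receptor for fibroblast growth factors, was 22.5, 21.5, 22.1 and 23.1 FPKM in A498 and 12.9, 13.3, 13.5 and 14.0 FPKM in 786-O, in the same order. The lines were far apart for their spread, with FGFR1 1.66-fold higher in A498 (95% interval 1.56 to 1.76, limma adjusted p = 7.14e-08). Reads of FGFR1 are divided by Cufflinks between 9 overlapping entries, of which NM_001174066 held 90.3% to 96.0% of the FPKM, so the sum was used and the division was not.

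MET, the receptor for hepatocyte growth factor, was among the 2 most abundant receptors in both lines. It was 47.5, 52.3, 50.3 and 54.5 FPKM in A498 and 54.6, 53.0, 54.8 and 52.6 FPKM in 786-O. The values overlapped, and the interval of the A498-to-786-O ratio was 0.885 to 1.02 (limma adjusted p = 0.158). HGF, the ligand of MET, was listed at 0 in every library. IGF1R, the receptor for insulin-like growth factors, was 1.09, 1.04, 0.959 and 1.03 FPKM in A498 and 1.08, 1.04, 1.28 and 1.11 FPKM in 786-O. These values overlapped too, with an interval of 0.803 to 1.06 (limma adjusted p = 0.230).

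PDGFRB, the platelet-derived growth factor receptor of pericytes and fibroblasts, was close to 0. It was 0.0273 to 0.0359 FPKM in A498, which corresponds to 4 to 8 reads per library, and 0.0694 to 0.0899 FPKM in 786-O, or 14.0 to 29.6 reads. The lines did not overlap, but at this depth the values rest on few reads, and PDGFRB was not tested, since it lay below the filter. Its read numbers were recovered from the deposited 95% intervals and cover counting error only. Of the 7 fibroblast and pericyte markers, COL1A1 (2.87 to 3.42 FPKM in A498) and ACTA2 had a mean of at least 1 FPKM, and COL1A2, COL3A1 and DCN were near 0 in both lines. The summed level of the 7 was 19.2 to 20.6 FPKM in A498 and 5.48 to 9.23 FPKM in 786-O. ACTA2 made up most of this sum, at 14.7 to 16.5 FPKM in A498 and 4.35 to 7.99 FPKM in 786-O. LUM had the same order as PDGFRB, with 0 to 0.0208 FPKM in A498 and 0.493 to 0.677 FPKM in 786-O, and RGS5 the opposite order, with 0.791 to 1.00 and 0.365 to 0.535 FPKM. Their part in the PDGFRB values was not tested.

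The genes with the pattern most like TGFA over the 8 libraries, by Pearson correlation of log2(FPKM + 0.1), were STEAP1 (r = 0.999), SULT1A2 (r = 0.999) and HSD17B11 (r = 0.999). Among those most like EGFR were CTBS (r = 0.991) and KRT10 (r = 0.989). As the libraries fall into 2 lines, such values largely restate the line difference, and 3389 of the 10503 genes tested had r above 0.9 with TGFA. TGFA and EGFR had r = 0.952 with each other.

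The knockdown was then compared with NTC. None of the 8 genes tested passed the test of SLINKY knockdown over both lines, within A498 or within 786-O, and none passed the test of a difference in response between the lines. In simulated data, the tests within a line recovered 1 of 200 changes of 1.25-fold in A498 and 0 of 200 in 786-O. The changed genes were drawn from all genes tested, so the adjusted test seldom calls changes of that size there. Of all genes tested, 0% were called over both lines and in 786-O, and 0.00952%, which is 1 gene, in A498 and in the interaction of knockdown and line. That gene was MAPK8, a stress kinase outside the list and chosen after its values were seen. It was 2.59 and 3.16 FPKM in the A498 NTC libraries and 0.00138 and 0.00194 FPKM with siRNA1 and siRNA2. In 786-O it was 6.00 and 3.05 FPKM in the NTC libraries and 5.81 and 7.31 FPKM with the siRNAs. At an unadjusted p under 0.05, limma gave 1249 genes (11.9%) over both lines, 641 (6.1%) in A498 and 483 (4.6%) in 786-O, and none of the 8 was among them.

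Over both lines, the 95% intervals of the knockdown-to-NTC ratio all lay between 0.878 and 1.18, so that a change of 1.25-fold lay outside the interval of each of the 8 genes. The fitted log2 difference ran from -0.07 (ERBB2) to 0.06 (EGFR), and the lowest adjusted p was 0.582, also for ERBB2. TGFA had a ratio of 0.982 (95% interval 0.928 to 1.04) and EGFR a ratio of 1.04 (95% interval 0.915 to 1.18). Within A498 alone the intervals of the 8 genes lay between 0.780 and 1.34, and within 786-O alone between 0.807 and 1.35. Those that reached 1.25-fold in either direction were of EGFR and IGF1R in A498 and of IGF1R in 786-O. For TGFA the interval was 0.893 to 1.07 in A498 and 0.901 to 1.08 in 786-O.

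**Figure D3:**
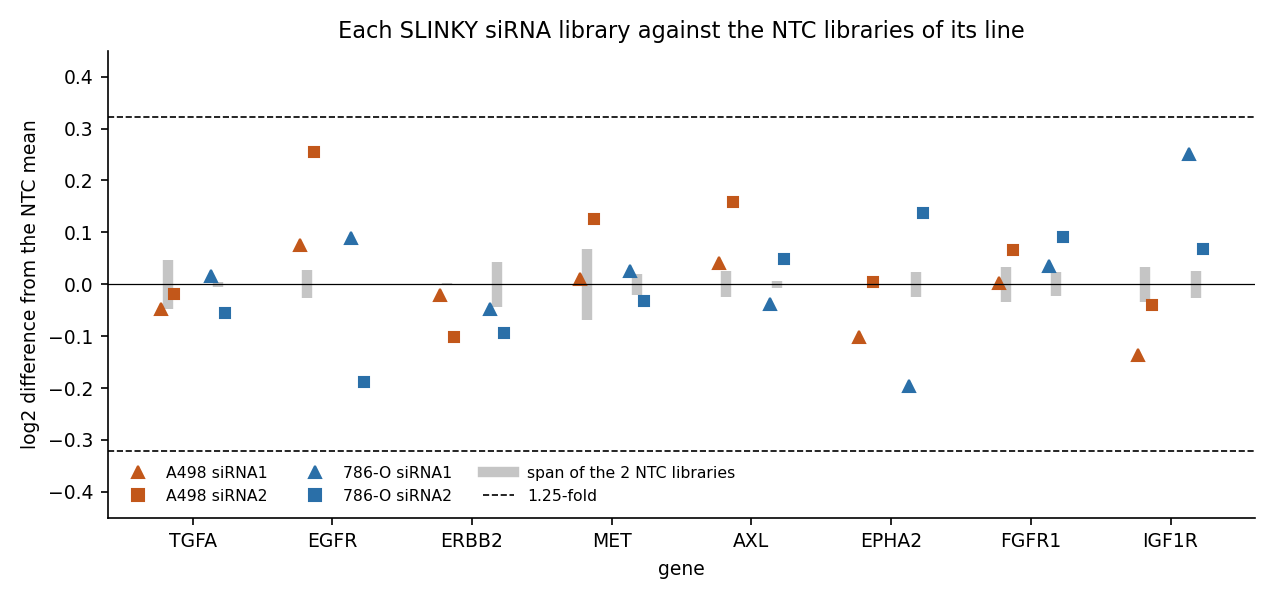
log2 difference of each siRNA library from the mean of the NTC libraries of its line for the 8 genes tested, with triangles for siRNA1, squares for siRNA2, grey bars for the span of the 2 NTC libraries and dashed lines at 1.25-fold. All 32 values lie inside the dashed lines, the farthest at 0.25.

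Each siRNA library was also set against the mean of its NTC libraries, with no test, since each is 1 library. None of the 8 genes passed 1.25-fold with either siRNA in either line. The share of all genes tested that did was 3.81% with siRNA1 and 5.49% with siRNA2 in A498, and 5.91% and 3.92% in 786-O. Between the 2 NTC libraries it was 4.67% in A498 and 4.63% in 786-O. The values nearest to the limit were EGFR with siRNA2 in A498, at 0.25 on the log2 scale, and IGF1R with siRNA1 in 786-O, also at 0.25.

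EGFR had unlike values with the siRNAs. In A498 its log2 values were 0.08 with siRNA1 and 0.25 with siRNA2, and in 786-O 0.09 and -0.19. EPHA2 likewise was at -0.20 with siRNA1 and 0.14 with siRNA2 in 786-O. ERBB2 was below the NTC mean in all 4 siRNA libraries, with log2 values of -0.10 to -0.02, and FGFR1 was above it in all 4, with log2 values of 0.00240 to 0.0908. Of all genes tested, 14.4% were below and 17.6% above in all 4, so 1 gene of 8 in each direction is near that background. With siRNA1 the ERBB2 sign depended on its minor entry. There the leading entry, NM_004448, was above both NTC values in A498 (5.82 against 5.64 and 5.79 FPKM). In 786-O it was too (5.65 against 5.26 and 5.56 FPKM). With siRNA2 the leading entry was below both NTC values in each line, at 5.56 FPKM in A498 and 5.18 FPKM in 786-O. The entries overlap, and Cufflinks made the division of reads between them. With the highest entry in place of the sum, the ERBB2 log2 difference over both lines was -0.00317 instead of -0.07. In A498 both siRNA libraries lay outside the NTC values for 4 of the 8 genes (EGFR and AXL above, ERBB2 and IGF1R below), beside 37.3% of all genes tested. In 786-O they did for 3 of the 8 (FGFR1 and IGF1R above, ERBB2 below), beside 32.8%. TGFA had log2 values of -0.06 to 0.02, beside a difference of 0.09 between the 2 NTC libraries of A498. ERBB3, near 0, had values of -1.11 to -0.11 beside NTC differences of -0.86 and -0.96.

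The genes around the receptors were described from 6 lists of 137 genes, of which 71 were tested. Between the lines 60 of the 71 were called, 35 higher in A498 and 25 higher in 786-O, which is 84.5% beside 83.0% of all genes tested. At 2-fold or more it was 21 of the 71, or 29.6%, beside 23.3%. The filter takes the mean over both lines, so a gene can pass it through a single line. EREG, EFNA1, FGF5 and MMP2 stayed under 1 FPKM in every A498 library. EPHB4, EFNA3 and SPRY4 stayed under 1 FPKM in every 786-O library. A difference between the lines was thus partly built into the selection of such genes, here and among all genes tested. With knockdown none of the 71 was called over both lines, in either line or in the interaction, and 10 had an unadjusted p under 0.05 over both lines, beside 11.9% of all genes tested.

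**Figure D4:**
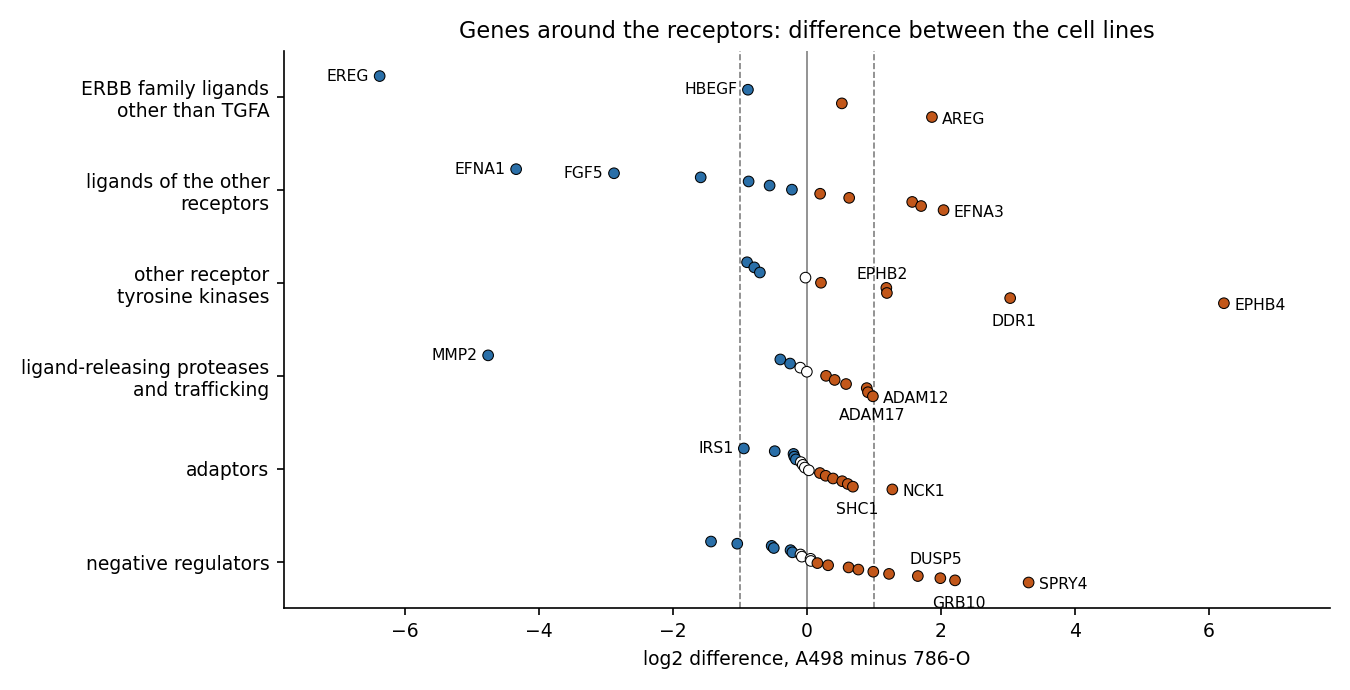
log2 difference of A498 minus 786-O for the 71 tested genes of 6 lists, 1 row a list, with orange for called and higher in A498, blue for called and higher in 786-O, white for not called, and dashed lines at 2-fold. The 3 called genes with the largest difference of each list are named, and EREG (-6.37) and EPHB4 (6.22) lie farthest from 0.

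Of the 10 ERBB ligands besides TGFA, 4 were tested and all 4 were called, beside 83.0% of all genes tested. They were 2 in each direction, with a median log2 difference of -0.18 beside -0.02 for all genes tested. EREG (epiregulin) was 0.0895 to 0.144 FPKM in A498 and 14.6 to 19.7 FPKM in 786-O, a log2 difference of -6.37 (SE 0.12). AREG (amphiregulin) was higher in A498, at 12.9 to 15.8 against 3.31 to 4.93 FPKM. HBEGF was higher in 786-O, at 28.8 to 33.6 against 15.5 to 17.9 FPKM. Among the tested EGFR ligands, TGFA and AREG were thus higher in A498, and EREG and HBEGF in 786-O. EGF and BTC, under the filter and not tested, were 0.514 to 0.750 and 0.560 to 0.705 FPKM in A498, and 0.152 to 0.255 and 0 to 0.0569 FPKM in 786-O. NRG1, a ligand of ERBB3, was 1 of the 4 as well, and some of its entries and those of EGF were not marked as fully quantified in the deposited tables.

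Of the 19 ligands of the other receptors, 11 were tested and all were called, beside 83.0% of all genes tested. Higher in A498 were 5 and in 786-O 6 (40.6% and 42.5% of all genes tested), with a median of -0.22. EFNA1, an ephrin that binds EPHA2, was 0.610 to 0.719 FPKM in A498 and 14.0 to 16.6 FPKM in 786-O. FGF5 was higher in 786-O too, with a log2 difference of -2.88 (SE 0.13), and EFNA3 was higher in A498 by 2.04 (SE 0.12). IGF1 was listed at 0 in every library.

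Of the 44 genes listed as other receptor tyrosine kinases, a list that includes the receptor-like FGFRL1, 29 stayed under 1 FPKM in all 8 libraries. Tested were 9. Of these, 5 were higher in A498 and 3 in 786-O (40.6% and 42.5% of all genes tested), with a median of 0.21. EPHB4, an ephrin-B receptor, was 27.0 to 29.2 FPKM in A498 and 0.242 to 0.336 FPKM in 786-O. DDR1, a collagen receptor, was 24.5 to 25.9 FPKM against 2.74 to 3.27 FPKM, and some of its entries were not marked as fully quantified. EPHB2 was 2.29-fold higher in A498. In all, 5 of the 44, EPHB4, EPHA7, EPHB1, EPHB6 and MST1R, exceeded 1 FPKM in A498 and in no 786-O library. The reverse held for 2, ROR2 and FGFR3, which reached 1.19 and 1.11 FPKM in 786-O. How many of all genes had these patterns was not computed. MST1R, a relative of MET, was 1.73 to 2.03 FPKM in A498.

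All 11 genes of ligand release and trafficking were tested, with a median of 0.29. Higher in A498 were 6 and in 786-O 3 (40.6% and 42.5% of all genes tested). ADAM17, which cuts TGFA from the membrane, was 6.90 to 9.44 FPKM in A498 and 3.51 to 4.97 FPKM in 786-O, a log2 difference of 0.91 (SE 0.12). ADAM12, which cuts HBEGF, was higher in A498 by 0.98 (SE 0.06). MMP2, a gelatinase, was higher in 786-O, at 10.4 to 12.2 FPKM against 0.290 to 0.361 FPKM.

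Of the 24 adaptors, 16 were tested, with a median near 0. Higher in A498 were 7 and in 786-O 5 (40.6% and 42.5% of all genes tested). NCK1 was higher in A498 by 1.27 (SE 0.05) and SHC1, which docks on EGFR, by 0.69 (SE 0.04). IRS1, the docking protein of IGF1R, was higher in 786-O, with a log2 difference of -0.94 (SE 0.06). GRB2, which links the receptors to RAS, was 51.6 to 54.3 FPKM in A498 and 53.7 to 56.1 FPKM in 786-O and was not called.

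Of the 29 negative regulators, 20 were tested, with a median of 0.11. Higher in A498 were 10 and in 786-O 6 (40.6% and 42.5% of all genes tested). SPRY4, a feedback inhibitor of receptor signalling, was 2.17 to 2.57 FPKM in A498 and 0.104 to 0.186 FPKM in 786-O. GRB10, which binds the insulin and IGF receptors, was higher in A498 by 2.21 (SE 0.13), and DUSP5, a phosphatase of ERK, by 1.99 (SE 0.07). ERRFI1, a direct inhibitor of EGFR that was chosen after its values were seen, was 27.3 to 30.2 FPKM in A498 and 55.3 to 62.1 FPKM in 786-O, with a log2 difference of -1.04 (SE 0.05).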

How the data were processed

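RNA was sequenced as single-end reads of 36 bp from 8 libraries, grouped by the labels. The authors mapped them to hg19 and deposited FPKM values from a separate Cufflinks run per library. The submitters' processing notes name TopHat2 2.0.0 and Cufflinks 2.0.2, and a scaling across libraries is not given in the sources used here. The paper's methods give a later RNA isolation than the labels' 16 h, and independent siRNAs where the labels describe pools.

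RefSeq NM entries received symbols from a RefSeq table (GRCh38.p14, names only), of which 97.7% matched, and FPKM values were summed per symbol. All 26 entries of the 10 genes were marked as quantified. The 10503 genes with a mean of at least 1 FPKM were fitted with limma 3.58.1 in R 4.3.3 on log2(FPKM + 0.1), with a variance trend. The line comparison and the knockdown over both lines had additive terms for line and knockdown. The comparisons within a line and the interaction had a term per group of line and transfection. FPKM are not counts, so no count model was used. Depth was the median estimate over 37 to 49 single-exon genes per library, from their FPKM, length and reads recovered from the deposited intervals. As a check on these reads, low genes of up to 20 reads were examined. Their recovered reads were within 0.05 of whole numbers for 80.8% to 83.2% of them. Plots were drawn with matplotlib 3.10.9 under Python 3.11.15.

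The genes and lists were chosen with earlier results of these data known. Beyond the 10 genes, the rule names the 3 called genes with the largest line difference per list, list genes called with knockdown, and the 3 genes most like TGFA and EGFR, of which 1 is not reported here. Other genes are examples. In simulated data 192 of 200 changes of 2-fold were recovered over both lines, 187 in A498, 190 in 786-O and 166 in the interaction. Of 200 changes of 1.25-fold, the numbers were 100, 1, 0 and 0. Whether libraries came from separate cultures is not given in the sources used here, so p-values measure the spread between these libraries.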

Additional observations from a re-analysis of the deposited data

Results flagged for a closer look

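IGF1R was the only tested gene of the list whose knockdown libraries lay wholly below the NTC libraries in one line (A498, 0.959 and 1.03 against 1.04 and 1.09 FPKM) and wholly above them in the other (786-O, 1.11 and 1.28 against 1.04 and 1.08 FPKM). The difference of the knockdown effects, A498 minus 786-O, was -0.25 on the log2 scale (95% interval -0.63 to 0.14), and limma's test of the interaction did not pass (adjusted p = 1.00 after rounding, unadjusted p = 0.177). NTC and knockdown libraries were apart for 37.3% of all genes tested in A498 and for 32.8% in 786-O. The share of all genes apart in opposite directions in the lines was not computed. IGF1R lay just above the filter, with a mean of 1.08 FPKM. Groups held 2 libraries each, too few to test for a library far from the others.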

How the results depend on the processing

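Between the lines, TGFA, FGFR1, EGFR, AXL and EPHA2 stayed called with the same direction in all 17 alternatives, and ERBB2, MET and IGF1R stayed uncalled. The largest adjusted p of the called 5 was 0.0349, for EPHA2. The log2 difference of IGF1R changed sign with NTC libraries only, to 0.00499. Without the filter on low values PDGFRB was called too (log2 difference -0.48, limma adjusted p = 9.57e-05) and ERBB3 was not (adjusted p = 0.380). With knockdown no gene of the list was called under any alternative, and none of the 8 passed 1.25-fold with the NTC library of the same number as control.

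The number of all genes called with knockdown was small and varied, and the cause was not tested. Over both lines it was 0, with 1 when noncoding entries were added, and 0 to 4 without single libraries, the 4 coming without 786-O KD replicate 2. In A498 it was 1, with 0 at a pseudocount of 1 FPKM, 5 without the filter, 3 with the highest entry in place of the sum, 13 with noncoding entries, 3 in a fit on the A498 libraries alone, and 1 to 8 without single libraries, the 8 coming without A498 KD replicate 1. In 786-O it was 0, with 3 at a pseudocount of 0.01 FPKM, 2 without the filter, 4 with the highest entry, 9 with noncoding entries, and 0 to 8 without single libraries, the 8 coming without 786-O KD replicate 2. For the interaction it was 1, with 0 at a pseudocount of 1 FPKM, 4 without the filter, 5 with the highest entry, 16 with noncoding entries, and 1 to 6 without single libraries, the 6 coming without A498 KD replicate 1. In fits that leave a group with 1 library, that library is assumed to vary like the others.

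With the replicate number as a block, 2 genes were called in A498, where 1 was called without it, and no call on the list changed. Deviations of same-numbered NTC and knockdown libraries correlated at 0.254 in A498 and -0.03 in 786-O, those of the NTC libraries across lines at -0.256 and those of the same siRNA across lines at 0.175. Not every pair exceeded 0.1, and no label says what the numbers mark, so the pairing was not used as the main design. AXL had the largest line difference of the 8 genes as reported (-0.89 beside 0.87 for TGFA), and TGFA had it with scaled libraries (0.89 beside -0.87), with KD libraries only (0.86 beside -0.85) and without A498 NTC replicate 1 (0.89 beside -0.87).

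Uncalled knockdown differences near 0 changed sign. Over both lines, log2 differences without single libraries ran from -0.00120 to 0.0539 for MET, -0.0257 to 0.0797 for IGF1R and -0.11 to 0.0263 for EPHA2. In A498 they ran from -0.10 to 0.00493 for EPHA2 and -0.0800 to 0.0141 for TGFA. In 786-O they ran from -0.19 to 0.0887 for EGFR, -0.0320 to 0.0262 for MET, -0.0383 to 0.0487 for AXL, -0.20 to 0.138 for EPHA2 and -0.0558 to 0.0165 for TGFA. For the interaction they ran from -0.0348 to 0.0519 for ERBB2, -0.0619 to 0.00527 for FGFR1, -0.186 to 0.147 for EPHA2 and -0.0603 to 0.0337 for TGFA. With the highest entry, ERBB2 was at 0.000319 in 786-O and -0.00698 in the interaction, and FGFR1 at 0.00362 in the interaction. With scaled libraries, AXL was at -0.00214 in 786-O and ERBB2 at -0.000927 in the interaction.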
